A study of Mus musculus with 6 samples.

Results

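Lymphocytes of epididymal white fat were followed through 46 genes that identify T cells, natural killer (NK) cells, B cells and the antibody-secreting plasma cells that B cells become. The genes were the rows of the deposited table with these symbols. All 46 were found once among the 22322 genes listed, 22 for T cells, 12 for NK and cytotoxic cells and 12 for B and plasma cells. All mice had eaten a high fat diet over 17 weeks; 3 were wild type and 3 were labelled CD44-KO. CD44 is a hyaluronan receptor that lymphocytes also carry. Whether the deletion was germline or confined to a cell type, and the strain and age of the mice, are not stated in the labels. Nor do they say that both groups share a strain background, so a strain difference, if there was one, and the genotype cannot be told apart. Nothing in the labels says that the libraries came from separate animals beyond their listing as separate samples, so p-values measure the spread between these samples.

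T cells recognise peptide through a receptor of alpha and beta chains, which signals through the CD3 chains and the zeta chain, the kinases LCK and ZAP70 and the adaptor LAT. NK cells and cytotoxic T cells kill with granzymes and perforin, and NK cells carry lectin-like receptors encoded by the Klr genes. B cells signal through CD79A and CD79B beside membrane immunoglobulin. Plasma cells secrete immunoglobulin, which is of the mu (IgM) class at first and of the gamma or alpha class after class switching, while the J chain joins IgM and IgA into polymers. In obese epididymal fat, T cells and B cells accumulate beside macrophages.

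Library totals ran from 15543321 to 18764996 counts after rounding. Cd44, the check of the genotype, had 3091, 10580 and 6000 wild type counts against 28, 50 and 34 in the CD44 KO libraries. Transcripts of the epididymis were present in CD44 KO replicate 2: 12 of 16 epididymis markers were detected there and their summed level was 11214 CPM (counts scaled to the library total, with TMM factors between libraries), against 1.19 to 14.7 CPM in the other 5 libraries, where 4 to 8 markers were detected. Macrophage genes were also uneven. The pan-macrophage list had a summed level of 6762 to 14387 CPM in wild type and of 6595, 369 and 1148 CPM in CD44 KO replicates 1 to 3, with none of its 15 markers at 0. All 15 had negative log2 fold changes and 0 passed edgeR (4 had a raw p below 0.05 and 5 passed DESeq2, all lower). Without CD44 KO replicate 1, 13 passed edgeR and the median log2 fold change went from -2.09 to -3.49. Of 13829 genes tested with edgeR's quasi-likelihood test on all libraries, 0.882% were called lower and 1.74% higher in CD44 KO at a Benjamini-Hochberg adjusted p under 0.05. Without CD44 KO replicate 1, 9.65% of the genes tested were called lower and 7.13% higher.

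Most lymphocyte genes were scarce. Of the 46 members, 20 had a mean below 1 CPM over the 6 libraries, 22 lay between 1 and 10 CPM, and 4 antibody or plasma cell genes (Ighm, Xbp1, Igkc and Jchain) lay above 10 CPM. The filter on low counts kept 34 members: 18 T, 8 NK and cytotoxic and 8 B and plasma cell genes. The 12 that it removed were Icos, Ctla4, Pdcd1, Foxp3, Eomes, Gzmk, Prf1, Ifng, Ms4a1, Blk, Pax5 and Cr2, with 0 to 26 counts in a library. CD44 KO replicate 2 gave the lowest value of the 6 libraries for 30 of the 46 members, and wild type replicate 1 gave the highest for 17. The same shares over all genes were not computed, so these counts are not set apart from other genes. In bulk tissue, fewer cells of a type and less RNA per cell cannot be told apart.

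**Figure D1:**
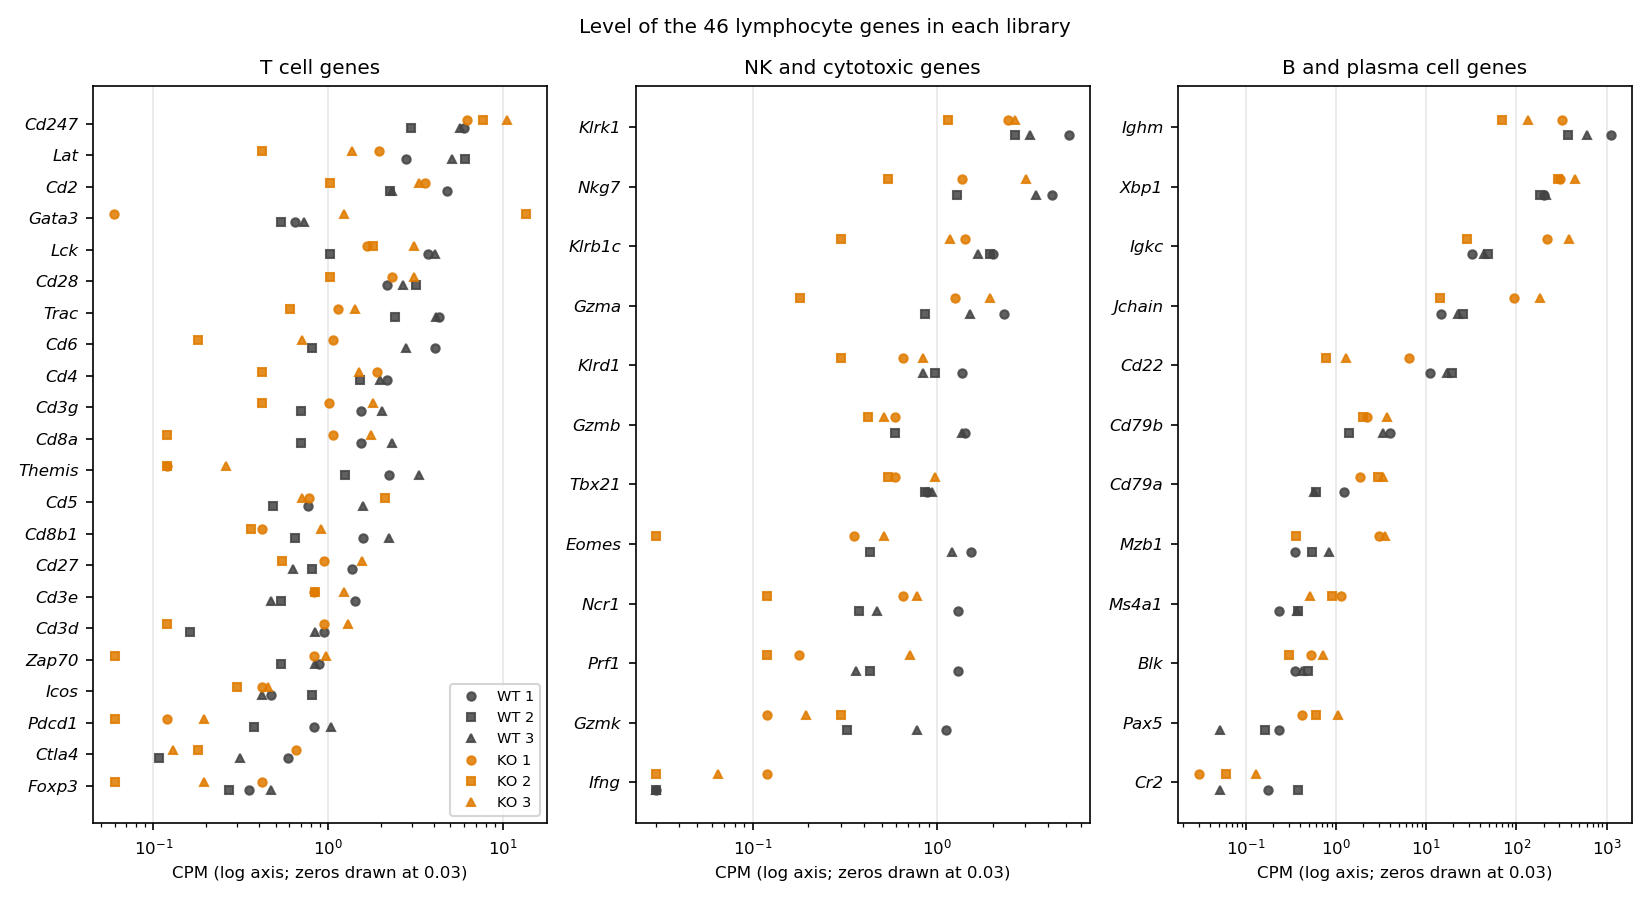
Level of each of the 46 genes in CPM (log axis, zeros drawn at 0.03) in the 3 wild type (WT, grey) and 3 CD44 KO (KO, orange) libraries, one panel per class; each point is 1 library. Themis points of the 2 genotypes lie apart, Igkc and Jchain are high in KO 1 and KO 3 only, and most T and NK points of the genotypes overlap.

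Among the tested T cell genes edgeR called only Themis on all libraries. Trac and Lat were also lower without overlap, Cd247 was higher without overlap, and the CD3 chains overlapped. Without overlap, 3 of 18 tested T members were lower and 1 higher, where 18.1% of all genes tested were lower and 19.7% higher. Of 18 tested T members edgeR called 1 lower and 0 higher, 3 were lower and 0 higher at a raw p below 0.05 (14.7% and 16.3% of all genes tested), and DESeq2 called 3 lower (9.74% of all its genes) and 0 higher. The fitted log2 fold changes (CD44 KO over wild type) had a median of -0.36, with 12 of 18 negative, where all genes tested had a median of 0.03 and 47.8% negative. The T cell median was -0.06 when CD44 KO replicate 2 was left out and -0.73 when CD44 KO replicate 3 was.

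Themis, a protein that T cell receptor signalling uses during T cell maturation, had 38, 23 and 63 wild type counts against 2, 2 and 4 in the CD44 KO libraries. Every CD44 KO library was below every wild type library. With so few CD44 KO counts, Themis passed the filter on low counts through its wild type libraries alone. Its level fell from 2.26 ± 1.02 to 0.166 ± 0.0806 CPM (SD, n = 3), at a fitted log2 fold change of -3.72, or 13.2-fold lower (an SE of 0.63, edgeR adjusted p 0.0437). The call depended on the libraries: the edgeR adjusted p was 0.0366 without CD44 KO replicate 1 and ran from 0.0665 (without wild type replicate 1) to 0.246 (without wild type replicate 3) when any 1 of the other 5 was left out, with log2 fold changes of -4.17 to -3.35. It was 0.0589 with no filter on low counts, where 0.46% of all genes were called lower and 0.784% higher.

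Themis lies on chromosome 10 (28668360 to 28883818, plus strand in GRCm38), within whose span the annotation also places pseudogenes on the opposite strand. The 250 bases before its start are printed because it is the one member called; the sequences here are RefSeq's, on GRCm38.p6, 5′ to 3′, in lower case, with capitals only for the motif letters searched below.
Themis, chr10:28668110-28668359, plus strand: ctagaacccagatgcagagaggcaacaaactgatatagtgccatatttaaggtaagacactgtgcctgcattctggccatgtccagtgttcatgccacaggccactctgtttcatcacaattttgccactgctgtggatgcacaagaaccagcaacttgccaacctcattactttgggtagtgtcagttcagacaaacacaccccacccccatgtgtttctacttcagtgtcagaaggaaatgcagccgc

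The CD3 chains, which every T cell carries, did not separate the genotypes. Cd3e had 24, 10 and 9 wild type counts against 14, 14 and 19 in the CD44 KO libraries. Cd3d had 16, 3 and 16 against 16, 2 and 20, and Cd3g had 26, 13 and 39 against 17, 7 and 28. The groups overlapped in all 3, and within each genotype replicate 2 held the lowest Cd3d and Cd3g. Their log2 fold changes were 0.26 (95% interval -1.16 to 1.69), 0.28 (-2.01 to 2.58) and -0.40 (-2.02 to 1.22), so that differences of 2-fold either way lie within each interval. Cd247, which encodes the zeta chain that NK cells share, had 102, 55 and 108 wild type counts against 105, 128 and 162 in the CD44 KO libraries (rounded estimated counts). Its levels did not overlap after scaling, at 2.96 to 6.01 CPM in wild type and 6.23 to 10.5 CPM in CD44 KO (log2 fold change 0.74 with an SE of 0.36, edgeR adjusted p 0.207). Cd247 overlaps the ubiquitous gene Pou2f1 on the opposite strand, and whether the libraries kept strand is not stated in the labels.

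The alpha chain constant gene was lower without overlap, where the CD3 chains overlapped, but edgeR did not call it on all libraries. Trac, which is needed for the receptor of most T cells, had 73, 45 and 79 wild type counts against 19, 10 and 22 in the CD44 KO libraries, with no overlap. Its log2 fold change was -1.78 (an SE of 0.47, 95% interval -2.90 to -0.66), with an edgeR adjusted p of 0.08 and a DESeq2 adjusted p of 0.00957. That interval overlapped the interval of each CD3 chain. Per length, Trac stood at 4.78, 7.03 and 13.6 times Cd3e in wild type and at 2.14, 1.11 and 1.89 times in CD44 KO (ratios of FPKM, the deposited level per transcript length and library total). The ratios of the genotypes did not overlap, and an exact permutation test over the libraries (two-sided) gave p = 0.1, the smallest that 3 against 3 allows, or 0.2 adjusted over the 12 ratios and shares compared this way. All 12 were chosen after the values were seen, and this ratio rests on 9 to 24 Cd3e counts per library. Ratios of Trac to Cd3d and to Cd3g were not among them. The beta chain constant genes Trbc1 and Trbc2, also chosen after their values were seen, gave log2 values of 0.08 and -0.36 for the genotype difference (edgeR adjusted p 0.939 and 0.741).

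Coreceptor and subset genes overlapped between the genotypes. Cd4, the coreceptor of helper T cells that macrophages can also express, had 37, 28 and 38 wild type counts against 32, 7 and 23 in the CD44 KO libraries (log2 fold change -0.57, SE 0.59). Cd8a, the coreceptor of cytotoxic T cells, had 26, 13 and 44 against 18, 2 and 27 (log2 fold change -0.63, SE 0.89). Its partner Cd8b1 had 27, 12 and 43 against 7, 6 and 14 (log2 fold change -1.41 with an SE of 0.66, edgeR adjusted p 0.196). The FPKM ratio of Cd4 to Cd8a was 1.42, 2.04 and 0.855 in wild type against 1.77, 3.25 and 0.842 in CD44 KO, with overlap (exact permutation p = 0.8, adjusted 0.8). Foxp3, the factor of regulatory T cells, had 6, 5 and 9 counts against 7, 1 and 3, which is too few to have passed the filter.

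Gata3, the factor of type 2 T and innate lymphoid cells, was set by one library. It had 11, 10 and 14 wild type counts against 1, 227 and 19 in the CD44 KO libraries (log2 fold change 2.95 with an SE of 1.5, edgeR adjusted p 0.226). The 227 counts belong to CD44 KO replicate 2, the library with 11214 CPM of epididymis transcripts, whose part in the value was not tested. Without that library the log2 fold change was -0.0017. The annotation also places other genes across Gata3 on both strands.

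Signalling and costimulation genes of T cells ranged from lower to level. Lat, the adaptor behind the receptor, had 47, 113 and 98 wild type counts against 33, 7 and 21 in the CD44 KO libraries, with no overlap (log2 fold change -1.90 with an SE of 0.61, edgeR adjusted p 0.107, DESeq2 adjusted p 0.0273). Cd6, a surface receptor of T cells, had 69, 15 and 53 against 18, 3 and 11, and wild type replicate 2 lay below CD44 KO replicate 1 (log2 fold change -1.95 with an SE of 0.82, edgeR adjusted p 0.164). Lck, the kinase that starts receptor signalling, had 63, 19 and 78 against 28, 30 and 48 (log2 fold change -0.42, SE 0.59). The kinase gene Zap70, the adhesion receptor gene Cd2 and the costimulation genes Cd27 and Cd28 had log2 fold changes of -0.28, -0.24, 0.13 and -0.32, and Cd5, a brake on receptor signalling, had 0.35. Of the 3 inhibitory or inducible receptors below the filter, Pdcd1 (PD-1) had 14, 7 and 20 counts against 2, 1 and 3 with no overlap. Ctla4 had 10, 2 and 6 against 11, 3 and 2, and Icos had 8, 15 and 8 against 7, 5 and 7.

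Other genes of T cells showed no shared direction. Of 42 further T cell genes 30 were tested, and edgeR called 0 lower and 1 higher (3 lower and 3 higher at a raw p below 0.05), with 16 of 30 negative and a median log2 fold change of -0.21. Without CD44 KO replicate 1 it called 5 lower and 3 higher, where 9.65% of all genes were called lower and 7.13% higher. The kinase gene Fyn, the interleukin 2 receptor gene Il2ra and the chromatin organiser gene Satb1 had log2 fold changes of -0.94, -0.97 and 2.11 at edgeR adjusted p values of 0.0708, 0.102 and 0.111; Fyn and Satb1 were called without CD44 KO replicate 1 (0.0445 and 0.047). Satb1 stood at 0.94 without CD44 KO replicate 2. Of 14 genes of type 2 innate lymphoid cells 7 were tested. Thy1, a surface protein of T cells and of stromal cells, fell from 26.5 ± 4.81 to 8.16 ± 1.87 CPM (log2 fold change -1.70 with an SE of 0.25, edgeR adjusted p 0.0337). It was called without CD44 KO replicate 1 and not when any 1 of the other 5 libraries was left out (0.0556 to 0.189). Il17rb and Il1rl1, receptors for interleukins 25 and 33 on these cells, stood at 2.45 and -2.13 (edgeR adjusted p 0.0653 and 0.076), and Il17rb was called without CD44 KO replicate 1 (0.0377).

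**Figure D2:**
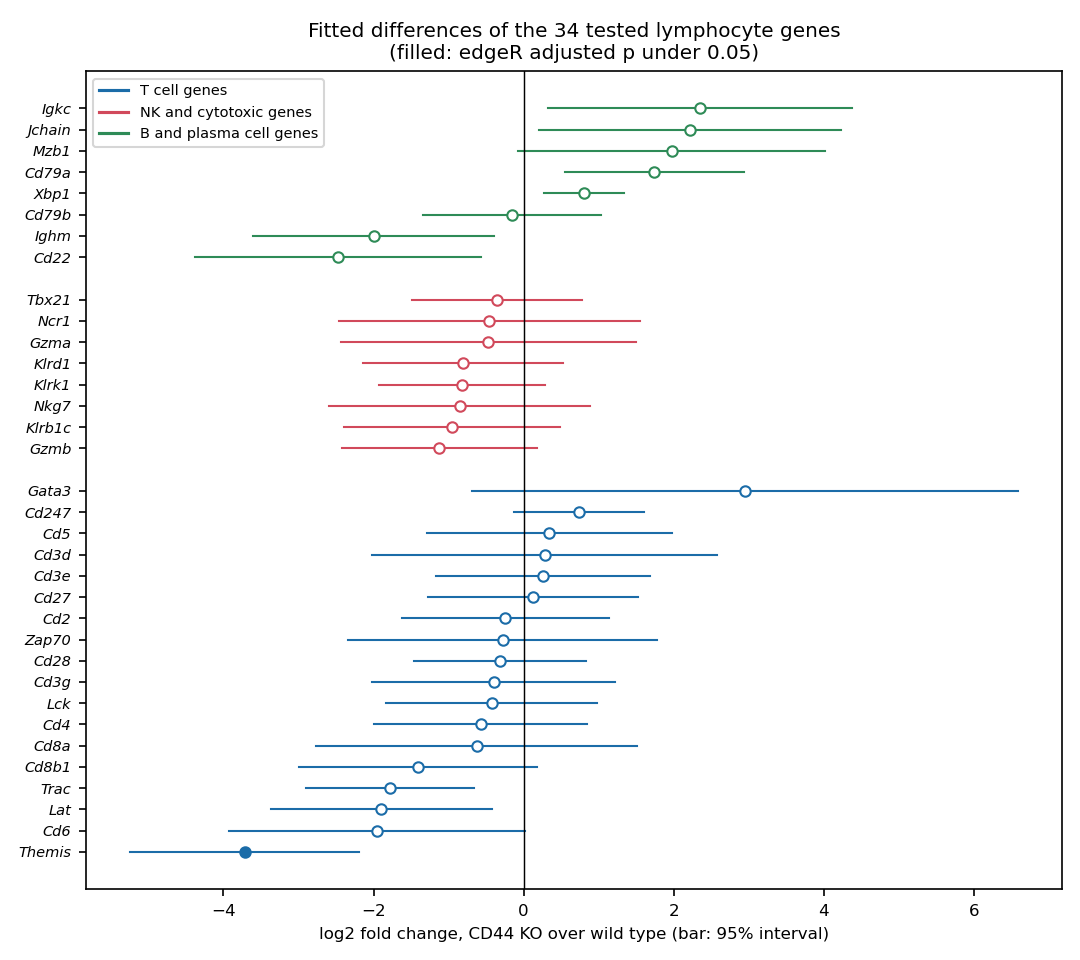
Fitted log2 fold change (CD44 KO over wild type) of the 34 tested members with 95% intervals, by class; filled points have an edgeR adjusted p under 0.05. Themis is the filled point at -3.72, all 8 NK and cytotoxic points lie left of 0, and the B and plasma cell points lie on both sides, from Cd22 at -2.47 to Igkc at 2.35.

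NK and cytotoxic genes all had fitted values below 0, but none separated the genotypes by the test. All 8 tested members were negative, with a median log2 fold change of -0.81 and a range of -1.12 to -0.35. edgeR called 0 of 8, with 0 at a raw p below 0.05 and 0 by DESeq2. CD44 KO replicate 2 held the lowest value for 10 of the 12 genes and wild type replicate 1 the highest for 10, with no share over all genes computed. Leaving out CD44 KO replicate 2 gave a median of -0.53, and leaving out wild type replicate 1 gave -0.49.

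The receptor genes of NK cells gave low counts throughout. Klrb1c (NK1.1) had 34, 36 and 32 wild type counts against 24, 5 and 18 in the CD44 KO libraries. It was the one tested NK member without overlap (18.1% of all genes tested did not overlap and were lower), at a fitted log2 fold change of -0.95 (an SE of 0.60, edgeR adjusted p 0.305). Klrd1 (CD94) had 23, 18 and 16 against 11, 5 and 13, and Klrk1 (NKG2D), which T cells share, had 88, 49 and 61 against 41, 19 and 41. Ncr1 (NKp46), a receptor found on few other cells, had 22, 7 and 9 against 11, 2 and 12, with overlap (log2 fold change -0.46, SE 0.84, 95% interval -2.47 to 1.55). The Klr genes are members of a family of close paralogs whose reads an estimator can share out differently.

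Granule genes differed in their order of libraries. Gzma (granzyme A) had 39, 16 and 29 wild type counts against 21, 3 and 30 in the CD44 KO libraries, and without CD44 KO replicate 2 its log2 fold change moved from -0.47 to 0.03. Gzmb (granzyme B) had 24, 11 and 26 against 10, 7 and 8 (log2 fold change -1.12 with an SE of 0.54, edgeR adjusted p 0.204). Nkg7, a granule membrane protein, had 71, 24 and 66 against 23, 9 and 47 (log2 fold change -0.85, SE 0.72). Gzmk (granzyme K), below the filter, had 19, 6 and 15 counts against 2, 5 and 3, with no overlap after scaling, and was lowest in CD44 KO replicate 1. Prf1 (perforin) had 22, 8 and 7 against 3, 2 and 11, and Gzma and Prf1 in CD44 KO replicate 3 lay above wild type replicates 2 and 3.

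The factors of these cells and their cytokine were at the edge of detection. Tbx21 (T-bet) had 15, 16 and 18 counts against 10, 9 and 15 (log2 fold change -0.35, SE 0.47), and Eomes had 26, 8 and 23 against 6, 0 and 8. Ifng, the interferon gamma gene, had 0, 0 and 0 wild type counts against 2, 0 and 1 in the CD44 KO libraries. A count of 0 allows up to 0.157 to 0.177 CPM in those wild type libraries (3 counts, counting error only). Ifng was thus near the floor in both genotypes, and a difference between such low levels was not detectable at this depth.

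Of 30 further NK genes 29 were in the table and 16 were tested. edgeR called 0 (3 lower and 1 higher at a raw p below 0.05, and 3 lower and 1 higher by DESeq2), 13 of 16 were negative and the median log2 fold change was -0.60. Serpinb9, which protects cells from granzyme B, and Sh2d1b1, an adaptor of NK receptors, stood at -0.80 and -2.57 (edgeR adjusted p 0.0531 and 0.109). Slamf7, a receptor that macrophages and plasma cells share, stood at -2.80, and Zbtb16, the factor of innate-like T cells that other tissues use as well, at 1.69 (edgeR adjusted p 0.142 and 0.0629). These 4 genes were called without CD44 KO replicate 1, at edgeR adjusted p values of 0.0226 to 0.0437. That fit called 9.65% of all genes lower and 7.13% higher.

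The fitted values of B and plasma cell genes lay on both sides of 0. Of 8 tested members edgeR called 0, while 2 were lower (Cd22 and Ighm) and 4 higher (Cd79a, Igkc, Jchain and Xbp1) at a raw p below 0.05, and DESeq2 called the same 2 lower and the same 4 higher (9.74% and 9.92% of all its genes). With 1 library left out, edgeR called Cd22 and Ighm lower without CD44 KO replicate 1, where 9.65% of all genes were called lower and 7.13% higher. It called Igkc and Jchain higher without CD44 KO replicate 2, where 0.257% were called lower and 0.457% higher. Of the 46 members, 5 were lower (Themis, Trac, Lat, Cd22 and Ighm) and 4 higher (Cd79a, Igkc, Jchain and Xbp1) at an FDR under 0.05 in the authors' deposited table, which at that FDR has 5.94% of its 22322 genes lower and 6.07% higher. All 9 were among the 9 that DESeq2 called here. Both rest on the same rounded counts, so the overlap is not a second set of data. The median log2 fold change of the 8 tested B and plasma members was 1.27, with 3 negative and 5 positive. Without overlap, 2 of them were lower (Cd22 and Ighm) and 2 higher (Cd79a and Xbp1), where 18.1% of all genes tested were lower and 19.7% higher.

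The signalling chains of the B cell receptor gave few counts and differed from each other. Cd79a, the signalling chain found in B and early plasma cells, had 21, 11 and 11 wild type counts against 31, 49 and 51 in the CD44 KO libraries. All CD44 KO libraries were above all wild type libraries, with 0.802 ± 0.378 against 2.69 ± 0.762 CPM (log2 fold change 1.74 with an SE of 0.50, edgeR adjusted p 0.0907). Its partner Cd79b had 68, 26 and 63 against 37, 33 and 56, with overlap (log2 fold change -0.16, SE 0.49, 95% interval -1.34 to 1.03).

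Of the mature B cell genes below the filter, Ms4a1 and Pax5 were lowest in wild type. Ms4a1 (CD20) had 4, 7 and 7 wild type counts against 19, 15 and 8 in the CD44 KO libraries, and Pax5, the factor that fixes B cell identity, had 4, 3 and 1 against 7, 10 and 16. Neither overlapped after scaling, and neither was tested. The counts of Blk, a B cell kinase, were 6, 9 and 8 against 9, 5 and 11, and those of Cr2 (CD21) were 3, 7 and 1 against 0, 1 and 2.

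Cd22 went the other way from Cd79a. This inhibitory receptor of B cells had 188, 358 and 324 wild type counts against 108, 13 and 20 in the CD44 KO libraries, with no overlap. It stood at 15.8 ± 4.22 against 2.83 ± 3.11 CPM (log2 fold change -2.47 with an SE of 0.79, edgeR adjusted p 0.107). Without CD44 KO replicate 1 it was called at -3.92 (edgeR adjusted p 0.0196). In wild type Cd22 lay above Cd79a per length, at 3.10 to 6.64 FPKM against 0.40 to 0.86 FPKM. The libraries with the least Cd22, CD44 KO replicates 2 and 3, were those with 369 and 1148 CPM of pan-macrophage transcripts, and CD44 KO replicate 1, with 6595 CPM, held the most Cd22 of the knockout libraries. Wild type replicate 1, with 6762 CPM of pan-macrophage transcripts, had 11.1 CPM of Cd22 against 6.41 CPM in CD44 KO replicate 1. The part of macrophages in the Cd22 value was not tested.

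The RefSeq start regions of these B cell genes that went opposite ways are printed with that of Jchain, the J chain gene described with the antibody genes. The annotation used for positions places other starts. By it the Cd22 window lies within the gene, which extends to 30880342, and the Cd79a window crosses the start at 24897381. Capitals mark CCCNNGGG, the core bound by early B cell factor, or GGAAGT, bound by ETS factors.
Cd79a, chr7:24897247-24897496, plus strand: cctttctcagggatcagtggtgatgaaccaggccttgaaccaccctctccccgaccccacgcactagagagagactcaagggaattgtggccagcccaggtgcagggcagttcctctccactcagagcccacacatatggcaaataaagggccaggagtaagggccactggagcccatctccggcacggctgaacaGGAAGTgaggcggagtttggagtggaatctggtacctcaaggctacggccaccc
Cd22, chr7:30879029-30879278, minus strand: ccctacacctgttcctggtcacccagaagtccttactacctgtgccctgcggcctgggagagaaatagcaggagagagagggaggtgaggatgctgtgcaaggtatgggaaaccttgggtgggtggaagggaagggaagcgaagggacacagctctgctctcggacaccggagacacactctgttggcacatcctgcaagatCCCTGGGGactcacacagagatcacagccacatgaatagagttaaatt
Jchain, chr5:88527898-88528147, minus strand: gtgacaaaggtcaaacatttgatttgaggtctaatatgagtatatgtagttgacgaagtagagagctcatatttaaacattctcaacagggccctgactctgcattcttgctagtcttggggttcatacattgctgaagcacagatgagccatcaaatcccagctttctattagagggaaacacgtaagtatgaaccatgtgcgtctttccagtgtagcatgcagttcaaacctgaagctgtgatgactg

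RefSeq gave a window for 32 of the 46 members, and 250 bases before each start were searched on both strands for 5 sets of letters, overlapping matches included. A member counted if any of its windows held the letters, with 38 windows over the 32 members. The shares of all windows are of single windows, so the 2 figures differ in unit. The GGAAGT core was in 13 of the 32 members, Cd79a among them, and in 19.7% of all 32851 windows. CCCNNGGG was in 4 (Cd22, Cd27, Prf1 and Zap70) and in 11.8% of all windows, and TGTGGT, the core of RUNX sites, was in 9, 7 of them NK and cytotoxic genes, and in 14% of all windows. The octamer ATGCAAAT was in 0 of 32 members and 1.6% of all windows, and TATAAA was in 2 members (Ifng and Foxp3) and 12.4%. Themis and Jchain held none of the 5 in the printed windows. A match is a description of letters and not a binding site.

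Per length, Ighm, Xbp1, Igkc and Jchain had the highest mean FPKM of the 46 genes in both genotypes. The fitted values of the mu heavy chain and the light chain had opposite signs, neither called on all libraries. Ighm, the mu heavy chain constant gene (chromosome 12, 113418558 to 113422730, minus strand), had 19114, 7007 and 11533 wild type counts against 5456, 1154 and 2074 in the CD44 KO libraries. All wild type libraries were above all CD44 KO libraries, at 1130, 378 and 602 CPM against 324, 69.3 and 134 CPM. The log2 fold change was -2.0 (SE 0.67, 95% interval -3.60 to -0.39), with an edgeR adjusted p of 0.114 that was 0.0352 without CD44 KO replicate 1, where the value stood at -2.79.

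Igkc, the kappa light chain constant gene (chromosome 6, 70726435 to 70726966, plus strand), had 541, 893 and 849 wild type counts against 3703, 471 and 5950 in the CD44 KO libraries. CD44 KO replicates 1 and 3 were far above every wild type library, while replicate 2 was below them all, as it was for Ighm. Its log2 fold change was 2.35 (SE 0.84, edgeR adjusted p 0.127) and 2.87 without CD44 KO replicate 2 (edgeR adjusted p 0.0453), and 1.58 without CD44 KO replicate 3. Jchain followed it, with 246, 471 and 430 counts against 1567, 234 and 2844 (log2 fold change 2.22 with an SE of 0.83, edgeR adjusted p 0.136), and with 2.74 and an edgeR adjusted p of 0.0497 without CD44 KO replicate 2. Jchain stood at 1.36 when CD44 KO replicate 3 was left out. Mzb1, a chaperone of antibody assembly, had 6, 10 and 16 counts against 51, 6 and 54 (log2 fold change 1.97 with an SE of 0.85, edgeR adjusted p 0.171). The annotation places SPATA24 across Mzb1 on the same strand.

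Xbp1, the factor of the secretory programme in plasma cells that adipocytes and other secretory cells also express, was even within wild type only. Its levels were 203, 181 and 212 CPM there and 302, 289 and 451 CPM in CD44 KO. It had 3442, 3354 and 4072 wild type counts against 5083, 4809 and 6966 in the CD44 KO libraries, without overlap (199 ± 16.3 against 347 ± 90.1 CPM; log2 fold change 0.80 with an SE of 0.22, edgeR adjusted p 0.087). Unlike Igkc and Jchain, it was not low in CD44 KO replicate 2. The mature adipocyte list stood at 10873 to 33079 CPM in wild type and 44198 to 69219 CPM in CD44 KO, with 10 of 10 markers positive and 1 called. The part of adipocytes in the Xbp1 value was not tested.

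**Figure D3:**
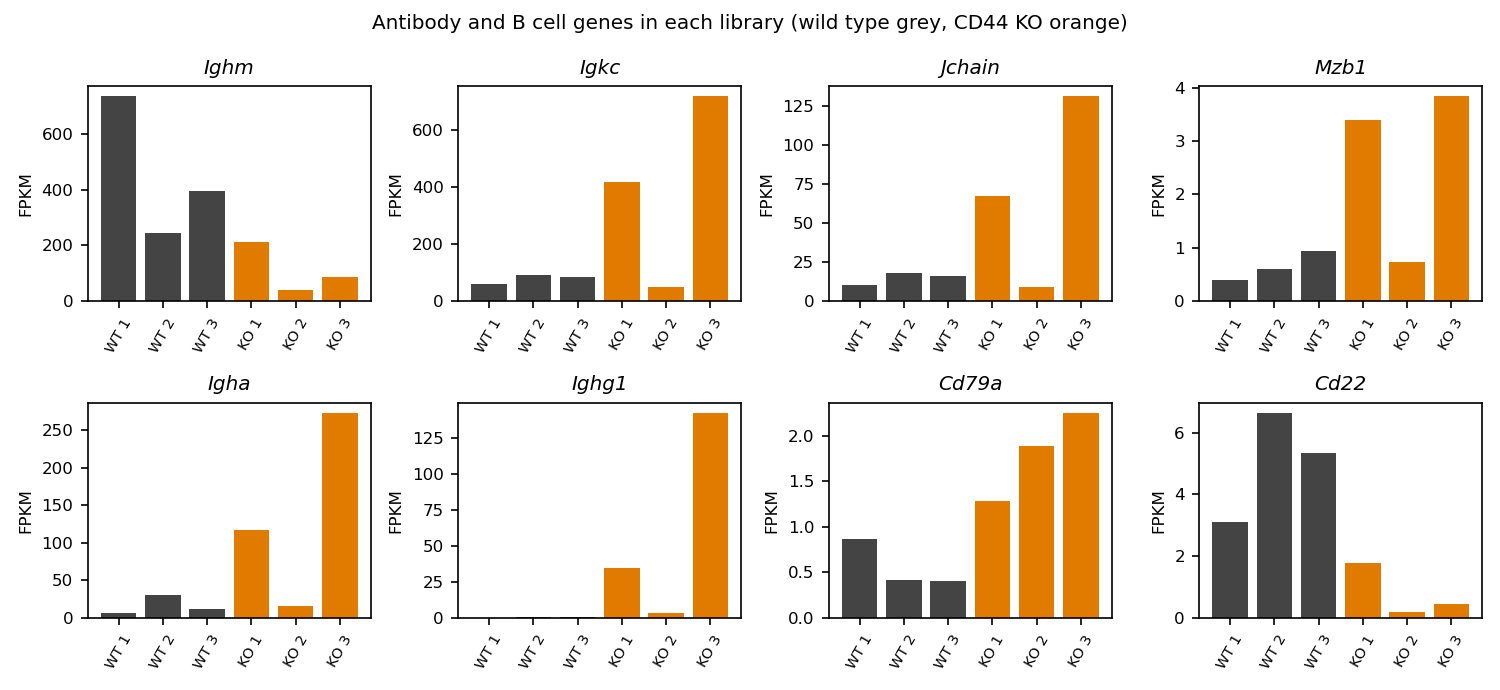
Level per length (FPKM, bars from 0) of 8 antibody and B cell genes in each library, wild type grey and CD44 KO orange. Ighm and Cd22 are highest in wild type, Cd79a is highest in CD44 KO, and Igkc, Jchain, Mzb1, Igha and Ighg1 are high in CD44 KO replicates 1 and 3.

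Some proportions between antibody genes separated the genotypes and others overlapped. Jchain kept nearly the same ratio to Igkc in all 6 libraries, from 0.162 to 0.201 by FPKM, while both varied more than 10-fold. The ratio of Ighm to Igkc was 12.0, 2.70 and 4.65 in wild type against 0.511, 0.842 and 0.120 in CD44 KO, without overlap (exact permutation p = 0.1, the smallest possible, adjusted 0.2). Against Cd79a, Ighm stood at 597 to 988 times in wild type and at 22.2 to 167 times in CD44 KO by FPKM, again without overlap (exact permutation p = 0.1, adjusted 0.2). The ratio of the summed IgA and IgG heavy chain genes to Igkc was 0.13, 0.592 and 0.400 in wild type against 0.575, 0.838 and 1.00 in CD44 KO, and overlapped (exact permutation p = 0.2, adjusted 0.267). Jchain to Igha was 1.71, 0.607 and 1.44 against 0.579, 0.619 and 0.481, and overlapped as well (exact permutation p = 0.2, adjusted 0.267). These quantities are among the 12 chosen after the values were seen.

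Class-switched constant genes were scarce in wild type and abundant in 2 of the 3 CD44 KO libraries. Ighm made up 98.9%, 86.3% and 93.8% of the counts of all heavy chain constant genes in wild type, against 55.1%, 57.8% and 14.3% in CD44 KO. The switched genes (Igha, the Ighg genes and Ighe) made up 0.771%, 13.5% and 5.77% against 44.6%, 40.8% and 85.4%, with no overlap (exact permutation p = 0.1, adjusted 0.2). In CD44 KO replicate 2 the share was high beside low Ighm: its 300 Igha and 514 Ighg counts compare with 615 and 484 in wild type replicate 2. Near-identical Ighg copies can share reads, so their sum is given. It was 2.0, 26.1 and 24.7 CPM in wild type and 135, 30.9 and 498 CPM in CD44 KO.

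Single isotypes varied by library. Ighg3, an IgG heavy chain gene, rose, with 2, 15 and 3 wild type counts against 274, 301 and 102 in the CD44 KO libraries (log2 fold change 5.21 with an SE of 0.82, edgeR adjusted p 0.0394). This call held without CD44 KO replicate 1 and was lost without any 1 of the other libraries (edgeR adjusted p 0.0619 to 0.235). Ighg1 had 0, 17 and 6 counts against 627, 70 and 2383 (log2 fold change 7.27 with an SE of 1.64, edgeR adjusted p 0.0665) and was called without CD44 KO replicate 1 (0.0388) or replicate 2 (0.0497). Igha, the IgA heavy chain gene, had 115, 615 and 236 counts against 2142, 300 and 4673, with overlap (log2 fold change 3.10 with an SE of 1.07, edgeR adjusted p 0.121). The lambda light chain gene Iglc2 had 32, 26 and 12 against 91, 36 and 208 (log2 fold change 2.42, edgeR adjusted p 0.104).

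**Figure D4:**
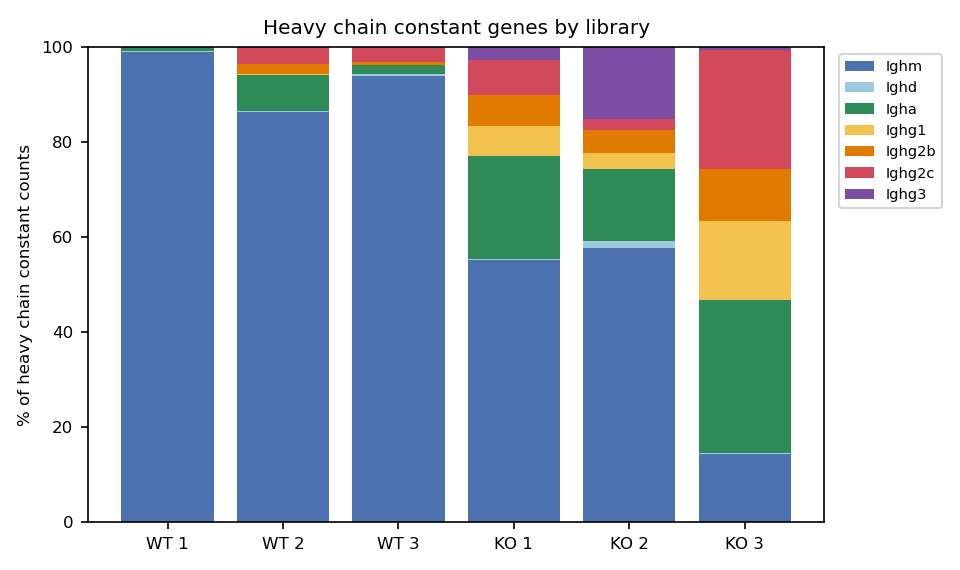
Share of each heavy chain constant gene in the summed heavy chain constant counts of a library, in percent, for wild type (WT) and CD44 KO (KO) replicates. Ighm takes 86.3% to 98.9% of the bar in wild type and 14.3% to 57.8% in CD44 KO; Ighe, at 0% to 0.0207%, is not drawn.

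Heavy and kappa variable segments had their high and low libraries where Igkc had them, and lambda segments did so in part. The 100 Igkv segments summed to 277, 411 and 367 wild type counts against 945, 117 and 1429 in the CD44 KO libraries, and the 113 Ighv segments to 79, 189 and 133 against 323, 44 and 547. Both were highest in CD44 KO replicates 1 and 3 and lowest in replicate 2, and the groups overlapped (exact permutation p = 0.5 for each, adjusted 0.714 over 20 sums of segments and lists). The 3 Iglv segments summed to 66, 104 and 104 counts against 82, 25 and 349, with CD44 KO replicate 1 within the wild type range on the CPM scale (exact permutation p = 0.9, adjusted 1). Ighv segments with at least 1 count numbered 19 to 45 in wild type against 41, 20 and 67 in CD44 KO. The 38 Trav segments of the T cell receptor had 2 counts in all, and the 6 Trbv segments had 0 in every library, which allows up to 0.157 to 0.194 CPM (3 counts, counting error only).

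Other genes of B and plasma cells also had values of both signs. Of 27 further B cell genes 18 were tested, and edgeR called 1 lower and 0 higher (5 lower and 1 higher at a raw p below 0.05), with 14 of 18 negative and a median log2 fold change of -1.12. Without CD44 KO replicate 1 edgeR called 9 lower and 1 higher, where 9.65% of all genes were called lower and 7.13% higher. Cd72, an inhibitory receptor of B cells that fell, had 377, 1278 and 1128 wild type counts against 109, 34 and 33 in the CD44 KO libraries (log2 fold change -3.81 with an SE of 0.65, edgeR adjusted p 0.0453). Its call held without wild type replicate 1 or CD44 KO replicate 1 and was lost without any 1 of the other libraries (edgeR adjusted p 0.0808 to 0.236). The receptor kinases Lyn and Syk, which macrophages also express, stood at -1.17 and -2.37, and the transcription factor gene Ebf1, which adipocytes also express, at 1.43 (edgeR adjusted p 0.0858, 0.13 and 0.0522), and all 3 were called without CD44 KO replicate 1 (0.0263, 0.0248 and 0.0264). As with Cd22, the lowest Cd72 lay in the CD44 KO libraries with the fewest pan-macrophage transcripts. Wild type replicate 1 and CD44 KO replicate 1, with 6762 and 6595 CPM of those transcripts, had 377 and 109 Cd72 counts. The part of macrophages in the Cd72 value was not tested. Of 21 further plasma cell genes 20 were tested, with 0 called lower and 1 higher (Ighg3), 2 lower and 5 higher at a raw p below 0.05, and a median of 0.42. Without CD44 KO replicate 1 the calls were 2 lower and 2 higher.

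Signals that draw or sustain lymphocytes did not differ by the test. Of 17 such chemokine and cytokine genes 14 were tested, and edgeR called 0 (1 lower and 0 higher at a raw p below 0.05, 1 lower and 0 higher by DESeq2, 2 lower without CD44 KO replicate 1), with 12 negative and a median log2 fold change of -0.59. Cxcl16, a chemokine that macrophages make, stood at -1.56 (edgeR adjusted p 0.116, and 0.0311 without CD44 KO replicate 1). The fit without that library called 9.65% of all genes lower and 7.13% higher. Of 9 markers of lymph nodes and lymphoid stroma 8 were in the table and 4 were tested. Their summed level was 20.7 to 37.9 CPM in wild type and 12.5 to 32.1 CPM in CD44 KO, and edgeR and DESeq2 each called 0 (0 at a raw p below 0.05).

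The mean centred level of each class in each library set the classes side by side (log2 CPM relative to the mean of each gene over the 6 libraries, averaged over tested members). T cell genes stood at 0.57, -0.25 and 0.56 in wild type against -0.26, -0.83 and 0.21 in CD44 KO. NK and cytotoxic genes stood at 0.82, -0.05 and 0.36 against -0.09, -1.27 and 0.22. The 5 plasma cell genes (Ighm, Igkc, Jchain, Mzb1 and Xbp1) stood at -0.43, -0.41 and -0.18 against 0.96, -1.17 and 1.22. This mean joins genes of opposite direction, as Ighm had a negative fitted log2 fold change and the other 4 positive ones. CD44 KO replicate 2 was lowest in all 3 classes, and CD44 KO replicate 3, with a pan-macrophage value of -1.54, held T and NK values within the wild type range.

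**Figure D5:**
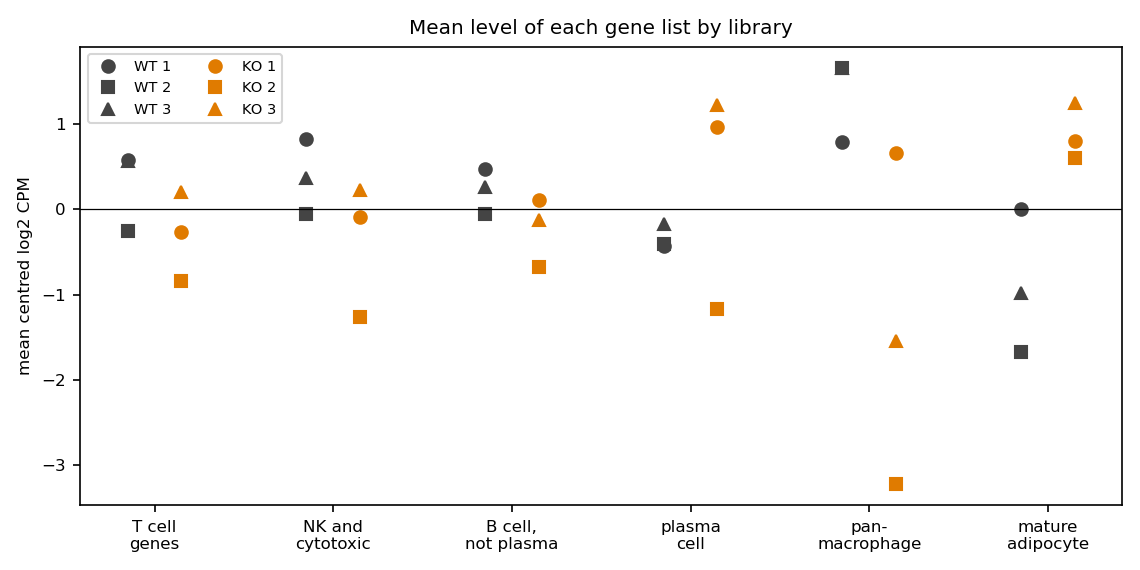
Mean centred log2 CPM of 4 lymphocyte classes and 2 reference lists in each library (points; wild type grey, CD44 KO orange). T and NK values of the genotypes overlap, plasma cell values are split within CD44 KO between replicate 2 at -1.17 and the other two, and pan-macrophage values run from -3.22 to 1.66.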

How the data were processed

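RNA of epididymal fat was enriched with oligo(dT) and sequenced on a NovaSeq 6000, per the labels' protocols. HISAT2, RSEM, StringTie 1.3.1 and DESeq2 are listed, with no roles, in the submitters' processing notes; build, annotation and strandedness are not stated in the labels. The authors deposited expected counts per gene (7.57% to 8.30% of values not whole) and FPKM, scaled by length and library size. The authors deposited a comparison table too, with the same counts rounded, a log2 fold change, a p-value and an FDR per gene, whose test is not named in the file headers.

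After rounding, 13829 genes that passed filterByExpr were tested by edgeR's robust quasi-likelihood F-test with TMM scaling (edgeR 4.0.16, R 4.3.3); "edgeR adjusted p" is Benjamini-Hochberg adjusted over all of them and called under 0.05. SE is the absolute log2 fold change over the root of F, and intervals use the test's moderated degrees of freedom. DESeq2 1.42.0 was an alternative, with RLE scaling, no filter, each library left out and a replicate block. On simulated counts for 13713 genes, all genes changed by 2 or 3 on the log2 scale were recovered, with 8 false calls. That simulation gave every gene the same fixed dispersion and changed only genes of higher level. It checks the fitting steps and cannot show which differences were detectable in the scarce lymphocyte genes. List centring used log2 CPM with a prior count of 2. Positions are from GENCODE M21 (GRCm38), matched by Ensembl identifier for 22267 of 22322 genes.

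Members and lists were chosen with earlier results of these data known. Library values were given for fixed lineage markers, any called member and the 4 tested members of lowest p in each class; for other lists, up to 4 genes of lowest p and any called gene. The lists covered further T, NK, type 2 innate lymphoid, B and plasma cell genes, and pan-leukocyte, macrophage, dendritic cell, adipocyte, lymphoid stroma, epididymis and lymphocyte signal genes. Some genes of these lists are counted but not reported here by name.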

Additional observations from a re-analysis of the deposited data

How the results depend on the processing

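Counts over all genes moved most. Called lower and higher were 122 and 240 with edgeR on all libraries, 1459 and 1487 by DESeq2, 85 and 145 with no filter, and 0 and 0 with the replicate block; leaving out 1 library gave 0 to 1363 lower and 0 to 1007 higher. The T cell count of 1 lower became 3 by DESeq2, 0 with no filter and 0 with the replicate block, and ran from 0 to 1 with 1 library left out. The B and plasma counts of 0 lower and 0 higher became 2 and 4 by DESeq2, and ran from 0 to 2 lower and 0 to 2 higher with 1 library left out. The cause of these shifts was not tested; leaving out a library also removes a sample from the fit. NK and cytotoxic counts were 0 in each of these fits.

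Same-numbered libraries did not deviate together (correlations of deviations -0.32, -0.22 and -0.02; no library was closest to its own number), so the replicate block compares numbers only.

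No tested member changed sign under DESeq2, RLE scaling, no filter or the replicate block. With 1 library left out (WT and KO with the replicate number), 11 log2 fold changes changed sign, none of them called. Cd3e ran from -0.0255 to 0.94 and changed sign without WT3. Cd3d ran from -0.27 to 0.79 and changed sign (to -0.18) without WT2 and without KO3. Cd2 ran from -0.53 to 0.22 and changed sign without WT1 and (to 0.14) without KO2. Cd5 ran from -0.34 to 0.92 and changed sign without KO2. Cd27 ran from -0.32 to 0.50 and changed sign (to -0.11) without WT3 and without KO3. Cd28 ran from -0.68 to 0.0177 and changed sign without KO2. Gata3 ran from -0.0017 to 3.52 and changed sign without KO2. Zap70 ran from -0.75 to 0.26 and changed sign without KO2. Gzma ran from -1.12 to 0.0335 and changed sign without KO2. Ncr1 ran from -0.87 to 0.29 and changed sign without WT1 and (to 0.0073) without KO2. Cd79b ran from -0.49 to 0.16 and changed sign without WT1 and (to 0.0054) without KO2. In alternatives chosen after seeing the data, log2 ratios of summed CPM did so too. Iglv segments ran from -0.64 to 1.47 and changed sign without KO3. Further plasma cell genes ran from -0.15 to 0.77 and changed sign without KO3. Dendritic cell genes ran from -0.0034 to 0.46 and changed sign without KO3. Lymphocyte signals ran from -0.24 to 0.18 and changed sign (to -0.10) without WT2 and without KO3. Counts under about 50 per library limit most T, NK and B members.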

Other observations

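The summed pan-leukocyte list read differently from its single genes in CD44 KO replicate 2. Of its 15 genes 14 were negative, with a median log2 fold change of -1.90 and 0 called by edgeR (3 lower at a raw p below 0.05, 6 lower by DESeq2). Without CD44 KO replicate 1 edgeR called 13 lower, at a median of -3.11, where 9.65% of all genes were called lower. Cd52, a leukocyte surface gene also known from epididymal epithelium and chosen after its values were seen, had 1133, 1820 and 2243 wild type counts against 681, 26164 and 257 in the CD44 KO libraries. The 26164 lay in the library with epididymis transcripts, whose part in the Cd52 value was not tested. Dendritic cell genes, 8 of 9 tested, had a median of -0.49 with 0 called (0 lower and 2 higher at a raw p below 0.05, 0 by DESeq2).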
